A study of Homo sapiens with 6 samples.

Results

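Genes of fatty acid synthesis, storage and oxidation were followed in T47D, an oestrogen receptor-positive line from a human breast ductal carcinoma, after knockdown of CUEDC1. The set holds 38 of the 17758 genes in the deposited table, all found there by symbol: 9 of synthesis, 7 of uptake, binding and activation, 8 of triglyceride assembly, 3 of the lipid droplet coat, 4 of lipolysis and 7 of oxidation. Poly(A)-selected RNA was sequenced from 3 libraries of cells carrying lentiviral short hairpin RNA against CUEDC1 (shCUEDC1) and 3 of cells carrying a non-targeting hairpin (shNC). Both groups were stable cultures grown in RPMI medium with fetal serum. The submitters call the libraries of a group biological replicates. The labels give neither the number of hairpins nor whether these libraries came from separate transductions, so the loss of CUEDC1 and other effects of its hairpin cannot be told apart. The p-values cover only the spread among the sequenced libraries, which may be technical.

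Cells make fatty acids in the cytosol from citrate-derived acetyl-CoA, through ATP citrate lyase, acetyl-CoA carboxylase and fatty acid synthase. Fatty acids made there or taken up are joined to coenzyme A before they are built into phospholipids and triglycerides or oxidised in mitochondria. The triglycerides are stored in droplets. Luminal breast tumour cells express the synthesis enzymes, and fatty acid synthase was described early as a breast cancer antigen.

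CUEDC1 was at 31.4, 33.8 and 32.0 CPM (estimated reads scaled to library size by TMM) in shCUEDC1 1, 2 and 3, against 109.6, 109.3 and 93.3 CPM in shNC 1, 2 and 3, a fall of 68.9% (edgeR quasi-likelihood adjusted p = 9.27e-06). Library totals were between 18924327 and 19731609 estimated reads. All 10 luminal markers were detected, with ESR1 at 128 to 129 CPM in shCUEDC1 and 102 to 128 CPM in shNC, and 0 of the 10 were called (edgeR). The 10 basal and fibroblast markers summed to 72.8 to 85.1 CPM in shCUEDC1 and 61.6 to 80.1 CPM in shNC, with COL1A1 called higher. Library shNC 3 stood apart. Across the 10142 genes averaging 10 CPM or more, log2 differences between it and the other shNC libraries had SDs of 0.236 and 0.256, against 0.107 to 0.124 for the other pairs within a group and 0.231 to 0.239 between shCUEDC1 libraries and the other shNC libraries. Counts of calls are therefore also given without shNC 3.

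Of the 38 genes, 33 passed the filter on low counts and 8 of those were called changed at an adjusted p below 0.05 (edgeR), 3 higher and 5 lower in shCUEDC1. Over all 13824 genes tested, 9.96% were called, 5.19% higher and 4.77% lower. CD36, the fatty acid translocase, fell the furthest and was alone in passing 2-fold, where 0.767% of all genes tested passed 2-fold downward and 0.405% upward. THRSP, ACSL4, LPIN1 and ACSL1 also fell, and MGLL, ACSF2 and DGAT2 rose. In bulk RNA, fewer cells with a transcript and less of it per cell cannot be told apart. The 7 oxidation genes and the 3 droplet coat genes had no call. Without shNC 3, 6 of the 33 were higher and 8 lower, where 28.1% of all genes were called, 14.3% higher and 13.8% lower. All 8 calls were kept in that fit, and 6 genes were added. Fits without 1 of the other libraries called 1 to 3 higher and 1 to 5 lower, where 3.34% to 7.26% of all genes were called.

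**Figure D1:**
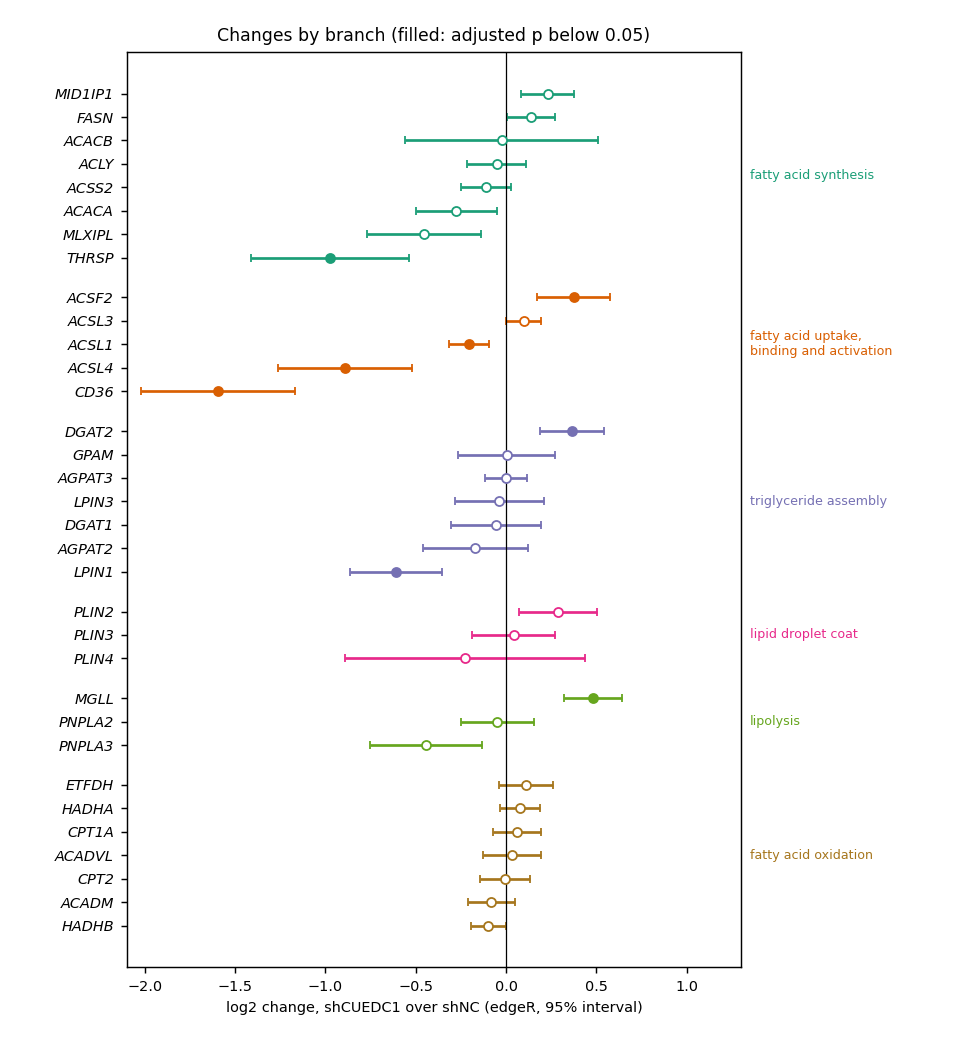
Log2 change of the 33 tested genes, shCUEDC1 over shNC, with 95% intervals from edgeR, grouped by branch. Filled points have an adjusted p below 0.05: 1 in synthesis, 4 in uptake and activation, 2 in triglyceride assembly, 1 in lipolysis, and 0 in the droplet coat and in oxidation.

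The stretches of DNA before the starts of the 5 genes that fell are shown because these genes carry the falls of the set. They come from RefSeq on GRCh38.p14, read 5′ to 3′ on the gene's strand from 250 bases before the most upstream start listed there, and end at that start or at the first exon that GENCODE v29 annotates. Capitals mark matches, on either strand, to any of the motifs searched: the E-box CACGTG, the sterol response element TCACNCCAC, CCAAT, the GC box GGGCGG, the oestrogen response element (GGTCA and TGACC with 3 bases between), the PPAR element (AGGTCA repeated after 1 base), the FOXO site GTAAACA and the TATA box TATAAA.
CD36 (chr7:80601957-80602149, plus strand): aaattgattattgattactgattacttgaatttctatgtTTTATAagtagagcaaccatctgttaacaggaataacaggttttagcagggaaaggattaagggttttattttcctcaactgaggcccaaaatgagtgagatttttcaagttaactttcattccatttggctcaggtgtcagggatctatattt
THRSP (chr11:78063611-78063860, plus strand): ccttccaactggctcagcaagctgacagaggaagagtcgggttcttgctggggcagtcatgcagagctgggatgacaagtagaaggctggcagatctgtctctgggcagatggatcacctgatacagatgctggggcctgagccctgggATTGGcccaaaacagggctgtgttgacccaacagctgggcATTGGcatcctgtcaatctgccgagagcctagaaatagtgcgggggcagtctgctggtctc
ACSL4 (chrX:109733404-109733507, minus strand): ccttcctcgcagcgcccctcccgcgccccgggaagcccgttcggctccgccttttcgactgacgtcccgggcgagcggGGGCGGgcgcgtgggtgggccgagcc
LPIN1 (chr2:11677294-11677543, plus strand): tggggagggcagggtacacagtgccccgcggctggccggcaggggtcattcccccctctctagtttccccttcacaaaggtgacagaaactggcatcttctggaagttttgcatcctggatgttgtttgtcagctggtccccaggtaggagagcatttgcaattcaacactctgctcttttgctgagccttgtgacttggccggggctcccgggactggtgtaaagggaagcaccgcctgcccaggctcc
ACSL1 (chr4:184826120-184826218, minus strand): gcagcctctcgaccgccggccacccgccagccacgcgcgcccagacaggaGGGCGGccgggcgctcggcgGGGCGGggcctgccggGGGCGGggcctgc
The stretch of CD36 was AT-rich (33.2% GC) and held 1 TATAAA, on the strand opposite to the gene. That of THRSP (57.2% GC) held a pair of CCAAT boxes, also on the opposite strand, and that of LPIN1 (58.4% GC) none of the motifs. Those of ACSL4 and ACSL1, at 78.8% and 85.9% GC, held GC boxes. The stretches of CD36 and ACSL1 lie inside the longer gene that GENCODE annotates. RefSeq lists 6 starts for CD36, 5 for ACSL1 and 3 for LPIN1, and which start these cells use was not measured. Windows of 250 bases were at hand for 30 of the 38 genes and for 11271 tested genes. The 30 include genes that did not pass the filter on low counts, among them ME1, LIPE and LPIN2, so the sets differ. LPIN2 is among those with an E-box. The GC box was in 19 of the 30, against 65.2% of all windows, CCAAT in 9 against 35.0%, the E-box in 3 against 8.76%, and TATAAA in 3 against 5.80%. The sterol response element was in 2, those of MID1IP1 and PNPLA2, against 0.825% of all windows. The other motifs were in 0 of the 30, against 0.00887% (oestrogen response element), 0.0177% (PPAR element) and 2.06% (FOXO site).

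Uptake, binding and activation was the branch with the most calls, 1 rise and 3 falls among 5 genes tested. CD36 (Entrez 948, chromosome 7 from 80369575 to 80679277, plus strand, GRCh38), the membrane receptor that brings long-chain fatty acids into cells, was at 67.7, 65.98 and 64.1 CPM in shCUEDC1 1, 2 and 3, against 234.6, 219.9 and 142.8 CPM in shNC 1, 2 and 3. Every shCUEDC1 library lay below every shNC library, and shNC 3 lay between the other shNC libraries and the knockdown. CD36 thus changed by -1.60 in log2 terms (edgeR adjusted p = 0.00299, 95% interval -2.02 to -1.17), and by -1.78 without shNC 3. It was called in all 6 fits that left out 1 library. Because CD36 also marks macrophages and adipocytes, their markers were read beside it. In the adipocyte and leukocyte lists, LEP, LPL, PTPRC, CSF1R and CD3E were below 1 CPM in every library. FABP4, a fatty acid-binding protein of adipocytes and macrophages, was at 0.051, 0 and 0 CPM in shCUEDC1 1, 2 and 3, against 0.658, 1.01 and 0 CPM in shNC 1, 2 and 3. CD14, a monocyte receptor, was at 0.985 to 1.33 CPM in shCUEDC1 and 1.37 to 1.66 CPM in shNC, lower in every shCUEDC1 library and not called. The 7 adipocyte markers in the table summed to 10.5 to 13.1 CPM in shCUEDC1 and 10.1 to 10.5 CPM in shNC, with 0 of 4 tested called. The 7 leukocyte markers in the table summed to 14.2 to 14.9 CPM in shCUEDC1 and 8.71 to 8.92 CPM in shNC, and the 1 called among 5 tested was LYZ, lysozyme, which was at 7.60 to 7.77 CPM in shCUEDC1 and 1.97 to 2.94 CPM in shNC. The part of these markers in the fall of CD36 was not tested.

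Long-chain acyl-CoA synthetases activate fatty acids by joining them to coenzyme A. ACSL4 (chromosome X from 109624244 to 109733403, minus strand), which prefers arachidonic acid and other polyunsaturated substrates, was at 4.08, 3.02 and 3.06 CPM in shCUEDC1, against 5.72, 6.15 and 6.98 CPM in shNC. The groups did not overlap (log2 change -0.89, 95% interval -1.26 to -0.52, edgeR adjusted p = 0.0096), at 58.6 to 80.0 estimated reads in shCUEDC1 libraries and 113 to 133 in shNC libraries. ACSL4 was called in 4 of the 6 fits that left out 1 library. ACSL1 (Entrez 2180, chromosome 4 from 184755595 to 184826818, minus strand), at 142.9, 132.0 and 134.6 CPM in shCUEDC1 and 153.5, 156.4 and 162.4 CPM in shNC, fell by 13.3% (edgeR adjusted p = 0.0308). Its call was kept in 1 of the 6 fits that left out 1 library. ACSL3, an isoform of the endoplasmic reticulum and of droplets, was at 203 to 211 CPM in shCUEDC1 and 191 to 197 CPM in shNC, without overlap and without a call (log2 difference 0.10, edgeR adjusted p = 0.193). ACSF2 (Entrez 80221, chromosome 17 from 50426158 to 50474845, plus strand), a mitochondrial acyl-CoA synthetase for medium-chain substrates, was at 29.2, 27.7 and 29.1 CPM in shCUEDC1 and 23.2, 23.9 and 19.3 CPM in shNC. It rose by 0.37 on the log2 scale (edgeR adjusted p = 0.0284, 95% interval 0.17 to 0.57), and was called in 2 of the 6 fits that left out 1 library. Its exons overlap CHAD, on the other strand, over 270 bases, and the use of strand in counting is not given in the sources used here.

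**Figure D2:**
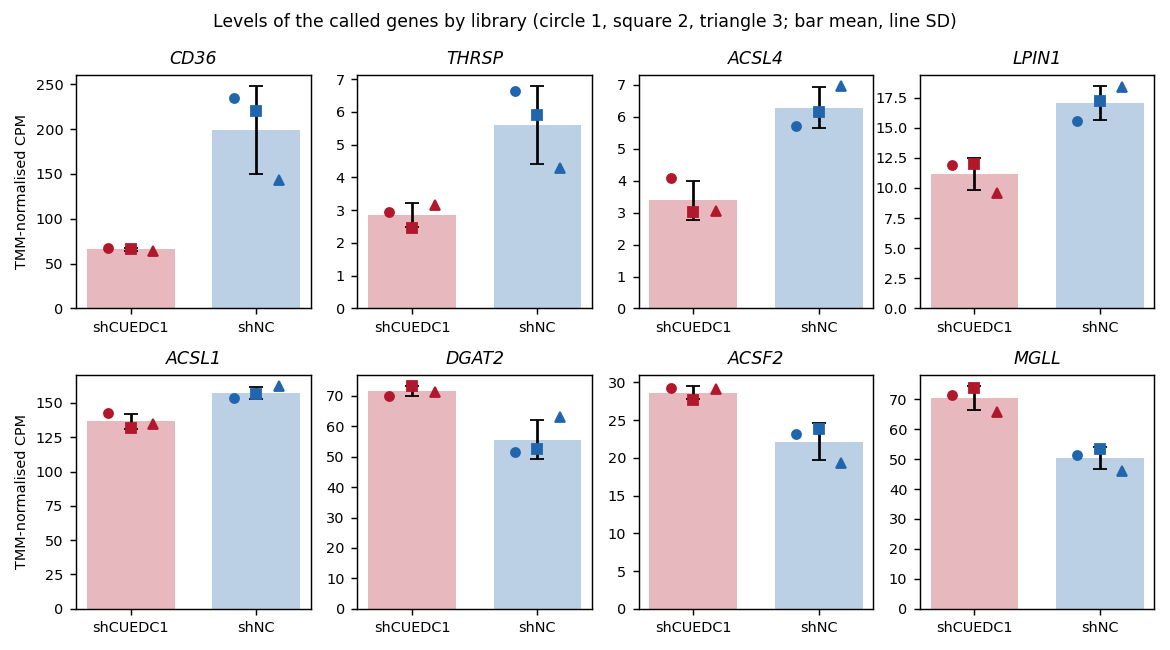
TMM-normalised CPM of the 8 called genes in each library, shCUEDC1 left and shNC right in each panel; bars are means of 3 libraries, lines the SD, and the vertical axes differ. All shCUEDC1 libraries lie below all shNC libraries for CD36, THRSP, ACSL4, LPIN1 and ACSL1, and above them for DGAT2, ACSF2 and MGLL.

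ACSL3 held a higher share of its family in shCUEDC1, and ACSL1 and ACSL4 lower ones. On the FPKM scale, which is scaled by length, ACSL3 made up 49.4 ± 0.719% of the summed ACSL1, ACSL3, ACSL4 and ACSL5 level in shCUEDC1 and 43.9 ± 1.22% in shNC (SD, n = 3 each). ACSL1 made up 49.5 ± 0.530% in shCUEDC1 and 54.4 ± 1.04% in shNC, and ACSL4 made up 0.905 ± 0.139% in shCUEDC1 and 1.61 ± 0.161% in shNC (SD, n = 3 each). The groups did not overlap in any of these shares. The two-sided exact permutation p was 0.1 for each, the smallest that 3 against 3 libraries allow, also after adjustment over the 6 shares compared. All of the 6 but that of ACSL3 are of genes called in these same libraries. ACSL1 and ACSL3 make up nearly all of their sum, so their shares mirror each other. The lack of overlap in the shares therefore adds no separate result to the calls.

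**Figure D3:**
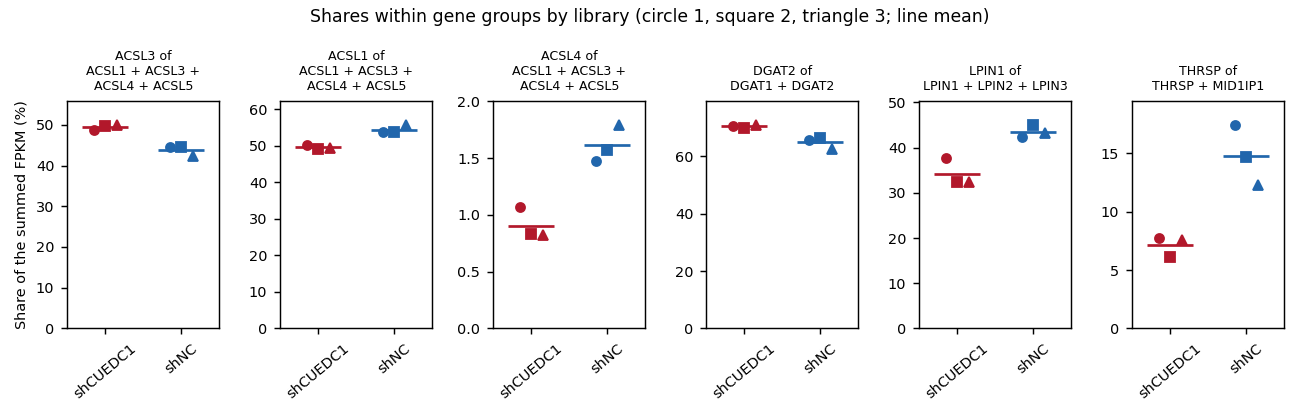
Share of a gene in the summed FPKM of the genes named above its panel, in percent, for each library, with shCUEDC1 left and shNC right; horizontal lines are means of 3 libraries. The shares of ACSL3 and DGAT2 are higher and those of ACSL1, ACSL4, LPIN1 and THRSP lower in every shCUEDC1 library than in any shNC library. All but ACSL3 are genes called in these same libraries, so the shares are not separate results.

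Synthesis held 1 call among 8 genes tested, and the enzymes themselves had none with all 6 libraries. THRSP (Entrez 7069, chromosome 11 from 78063861 to 78068351, plus strand), or Spot 14, a thyroid hormone-responsive protein that promotes lipogenesis in liver and mammary cells, was at 2.96, 2.46 and 3.16 CPM in shCUEDC1, against 6.63, 5.90 and 4.30 CPM in shNC. The groups did not overlap, and shNC 3 was the closest to the knockdown. The log2 change was -0.97 (edgeR adjusted p = 0.0135, 95% interval -1.41 to -0.54), resting on 47.98 to 60.97 estimated reads in shCUEDC1 libraries and 82.0 to 131 in shNC libraries. Its exons share 48 bases with NDUFC2 on the other strand. The call was lost in 4 of the 6 fits that left out 1 library, and the edgeR adjusted p reached 0.0802 (without shCUEDC1 2). MID1IP1, its paralog, which binds acetyl-CoA carboxylase and promotes its polymerisation, was at 71.1, 74.7 and 73.7 CPM in shCUEDC1 and 60.9, 67.9 and 58.3 CPM in shNC. The log2 difference was 0.23 (edgeR adjusted p = 0.0552). DESeq2 called it (adjusted p = 0.0415), as did edgeR on unfiltered genes (0.0456), without shNC 2 (0.0230) and without shNC 3 (0.00753). THRSP thus made up 7.14 ± 0.907% of the summed FPKM of the pair in shCUEDC1 and 14.8 ± 2.58% in shNC (SD, n = 3 each, exact permutation p = 0.1).

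Of the enzymes, ACLY, ATP citrate lyase, was at 397, 382 and 373 CPM in shCUEDC1 and 392, 357 and 445 CPM in shNC. FASN, fatty acid synthase, was at 358, 371 and 322 CPM in shCUEDC1 and 326, 327 and 302 CPM in shNC. Both sets of values overlapped, with log2 differences of -0.05 (95% interval -0.22 to 0.11) and 0.14 (95% interval 0.003 to 0.27, edgeR adjusted p = 0.191). ACACA, acetyl-CoA carboxylase 1, was at 110, 103 and 97.0 CPM in shCUEDC1 and 127, 106 and 142 CPM in shNC, a log2 difference of -0.28 (edgeR adjusted p = 0.12). It was called lower without shNC 2 (-0.38, edgeR adjusted p = 0.0131), and the difference was -0.17 without shNC 3 (edgeR adjusted p = 0.18). ACSS2, which makes acetyl-CoA from acetate, differed by -0.11. MLXIPL, the carbohydrate-responsive factor ChREBP, was at 4.18, 4.09 and 4.61 CPM in shCUEDC1 and 5.27, 5.998 and 6.40 CPM in shNC, without overlap and without a call (log2 difference -0.45, edgeR adjusted p = 0.0712). ACACB, the carboxylase isoform of the mitochondrial surface, was low, at 0.277 FPKM in shCUEDC1 and 0.280 FPKM in shNC.

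Triglyceride assembly held 1 rise and 1 fall among 7 genes tested. LPIN1 (Entrez 23175, chromosome 2 from 11677595 to 11827409, plus strand), a phosphatidate phosphatase that makes diacylglycerol and also acts as a coactivator in the nucleus, was at 11.9, 12.0 and 9.59 CPM in shCUEDC1, against 15.5, 17.2 and 18.4 CPM in shNC. The groups did not overlap (log2 change -0.61, 95% interval -0.86 to -0.36, edgeR adjusted p = 0.00955). The call was lost in 1 of the 6 fits that left out 1 library, that without shCUEDC1 3 (edgeR adjusted p = 0.0524). Its paralog LPIN3 was at 15.5, 19.3 and 15.6 CPM in shCUEDC1 and 16.4, 16.5 and 18.9 CPM in shNC, with overlap (log2 difference -0.04, 95% interval -0.28 to 0.21). LPIN1 made up 34.2 ± 3.08% of the summed lipin FPKM in shCUEDC1 and 43.5 ± 1.37% in shNC (SD, n = 3 each, exact permutation p = 0.1). LPIN2 is listed with 1, 0 and 0 estimated reads in shCUEDC1 and 0 in each shNC library. Whether LPIN2 is unexpressed or was not counted cannot be told from the table, so the LPIN1 share is in effect a share of LPIN1 and LPIN3. The exons of LPIN3 share 617 bases with EMILIN3 on the other strand, so the part of LPIN3 in that share is uncertain.

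DGAT2 (Entrez 84649, chromosome 11 from 75759512 to 75801535, plus strand), which catalyses the last step of triglyceride synthesis, was at 70.1, 73.3 and 71.5 CPM in shCUEDC1, against 51.4, 52.6 and 63.0 CPM in shNC. It rose without overlap, with shNC 3 the closest to the knockdown (log2 change 0.36, 95% interval 0.19 to 0.54, edgeR adjusted p = 0.018). The call was kept in 1 of the 6 fits that left out 1 library. DGAT1, an unrelated enzyme of the same reaction, was at 27.8, 30.3 and 28.3 CPM in shCUEDC1 and 26.8, 27.2 and 35.8 CPM in shNC, a log2 difference of -0.06 (95% interval -0.30 to 0.19). DGAT2 made up 70.5 ± 0.434% of the summed FPKM of the pair in shCUEDC1 and 64.9 ± 2.06% in shNC (SD, n = 3 each, exact permutation p = 0.1). The exons of DGAT1 share 139 bases with HSF1 on the other strand, so the part of DGAT1 in that share is uncertain. The earlier steps had no call: GPAM, the mitochondrial glycerol-3-phosphate acyltransferase, differed by 0.002 on the log2 scale and AGPAT3, a lysophosphatidic acid acyltransferase, by -0.001. AGPAT2 was at 35.9 to 39.7 CPM in shCUEDC1 and 33.4 to 49.6 CPM in shNC, with shNC 3 the lowest of all. Its log2 difference was -0.17 (edgeR adjusted p = 0.459), and -0.31 without shNC 3, where it was called (edgeR adjusted p = 2.88e-04), but -0.04 without shNC 2 (edgeR adjusted p = 0.856).

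Lipolysis and the droplet coat held 1 call among 6 genes tested. MGLL (Entrez 11343, chromosome 3 from 127689062 to 128052190, minus strand), monoglyceride lipase, which releases the last fatty acid from glycerol and also breaks down the endocannabinoid 2-arachidonoylglycerol, was at 71.4, 73.7 and 65.8 CPM in shCUEDC1, against 51.5, 53.3 and 46.1 CPM in shNC. It rose without overlap (log2 change 0.48, 95% interval 0.32 to 0.64, edgeR adjusted p = 0.00327), and was called in all 6 fits that left out 1 library. PNPLA2, adipose triglyceride lipase, was at 80.9, 85.0 and 82.3 CPM in shCUEDC1 and 91.6, 93.1 and 71.8 CPM in shNC. The shNC libraries lay on both sides of the knockdown (log2 difference -0.05, edgeR adjusted p = 0.797). PNPLA3 was at 6.07, 4.81 and 5.60 CPM in shCUEDC1 and 8.30, 7.31 and 6.82 CPM in shNC, a log2 difference of -0.45 (edgeR adjusted p = 0.0727). Without shNC 3 both were called lower (edgeR adjusted p = 0.0107 for PNPLA2 and 0.00532 for PNPLA3). The exons of PNPLA3 share 148 bases with SAMM50 on the same strand. PLIN2, the coat protein found on droplets of most cells, was at 57.2, 55.7 and 60.1 CPM in shCUEDC1 and 52.7, 49.6 and 39.6 CPM in shNC, without overlap (log2 difference 0.29, edgeR adjusted p = 0.0969). Without shNC 3 its difference was smaller, 0.18, and was called (edgeR adjusted p = 0.0159). PLIN3 differed by 0.04, and PLIN4, at 21.0 to 44.0 estimated reads a library, by -0.23.

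Oxidation, the branch with the highest summed FPKM, did not move by more than 0.11 on the log2 scale in any of its 7 genes. The sum was 304 ± 6.80 FPKM in shCUEDC1 and 307 ± 7.47 FPKM in shNC (SD, n = 3 each). CPT1A, carnitine palmitoyltransferase 1, the entry step of mitochondrial oxidation, was at 197, 206 and 179 CPM in shCUEDC1 and 185, 194 and 179 CPM in shNC, a log2 difference of 0.06 (95% interval -0.07 to 0.19). HADHA and HADHB, the subunits of the trifunctional protein, whose genes lie side by side on chromosome 2, differed by 0.08 and -0.10. HADHB did not overlap between the groups but was not called (edgeR adjusted p = 0.188). CPT2, ACADM and ACADVL, the inner-membrane carnitine transferase and the medium-chain and very long-chain acyl-CoA dehydrogenases, differed by -0.01, -0.08 and 0.03. ETFDH, which passes electrons from these dehydrogenases to ubiquinone, differed by 0.11 (edgeR adjusted p = 0.353), and by 0.17 without shNC 3, where it was called (edgeR adjusted p = 0.0246). Its exons share 490 bases with PPID on the other strand, and also overlap C4orf46 there. Those of ACADM share 157 bases with RABGGTB on the same strand, and those of ACADVL 85 with DLG4 on the other strand.

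**Figure D4:**
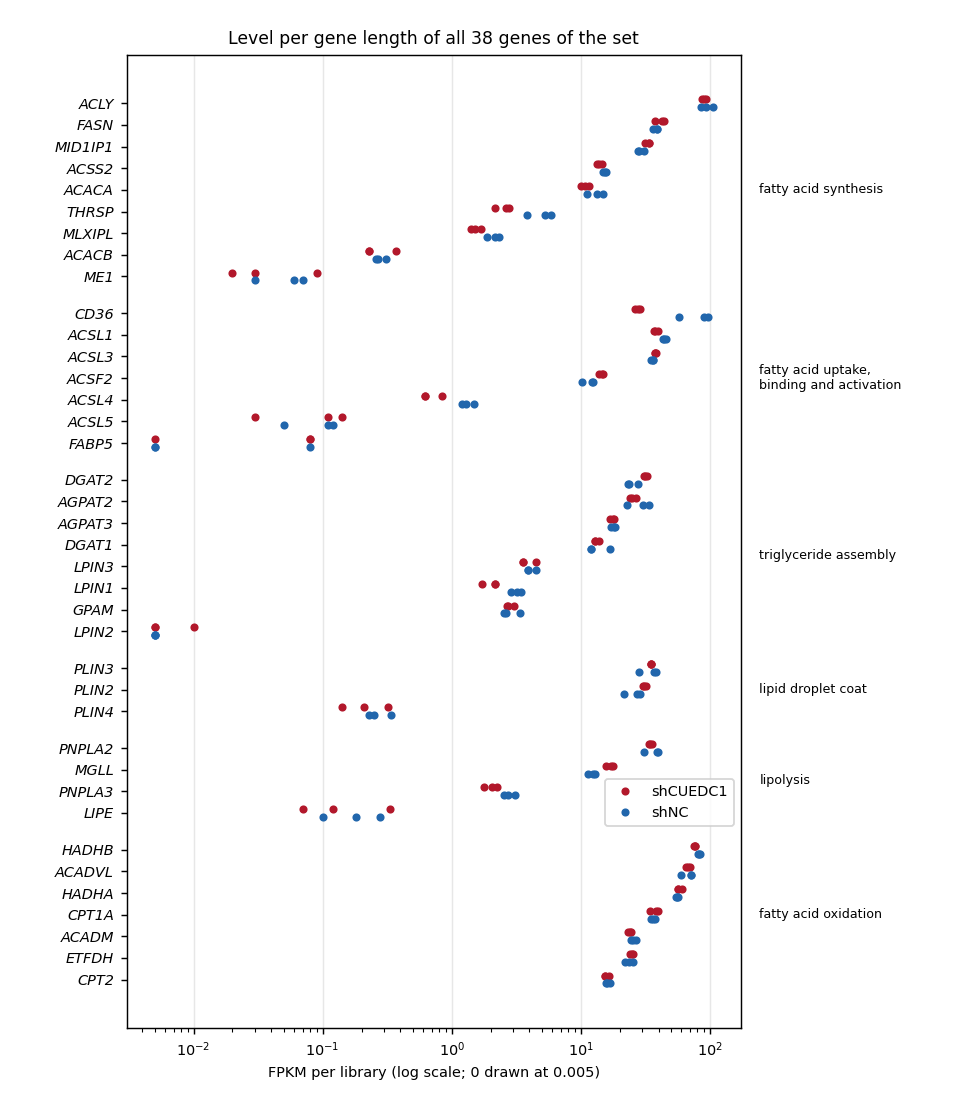
Level scaled by length (FPKM, log scale, zeros drawn at 0.005) of all 38 genes in every library, with shCUEDC1 in red above shNC in blue, ordered by level within each branch. Means run from under 0.1 FPKM (LPIN2, FABP5, ME1, ACSL5) to 89.8 FPKM in shCUEDC1 and 94.3 FPKM in shNC for ACLY.

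By level, ACLY was the highest gene of the set, at 89.8 FPKM in shCUEDC1 and 94.3 FPKM in shNC, followed in shCUEDC1 by HADHB at 76.2 FPKM and ACADVL at 67.6 FPKM. In shNC the next were HADHB at 82.6 FPKM and CD36 at 81.6 FPKM, and CD36 was at 27.4 FPKM in shCUEDC1. The 5 genes under the filter were ME1 (cytosolic malic enzyme), ACSL5, LIPE (hormone-sensitive lipase), FABP5 (a fatty acid-binding protein) and LPIN2, with at most 18 estimated reads in any library. FABP5 has processed pseudogene copies, so its low listing is uncertain.

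The set as a whole had a median log2 change of -0.04, against -0.004 over all genes tested, and 13 of the 33 changes were above 0. Branch medians were -0.08 for synthesis, -0.21 for uptake and activation, -0.04 for triglyceride assembly, 0.04 for the droplet coat, -0.05 for lipolysis and 0.03 for oxidation. In 15 of the 33 genes the shCUEDC1 and shNC values lay fully apart, 9 lower and 6 higher in shCUEDC1, where 31.3% of all genes tested did not overlap. The summed level of uptake and activation was 118 ± 3.53 FPKM in shCUEDC1 and 175 ± 20.9 FPKM in shNC (SD, n = 3 each). CD36 carried most of that gap: the sum without it, added after the values were seen, was 90.9 ± 2.72 FPKM in shCUEDC1 and 93.2 ± 0.637 FPKM in shNC (SD, n = 3 each). The sum for synthesis was 193 ± 5.22 FPKM in shCUEDC1 and 197 ± 9.17 FPKM in shNC. Triglyceride assembly summed to 93.8 to 100.4 FPKM in shCUEDC1 libraries and 92.4 to 97.0 FPKM in shNC libraries. Of the 8 calls, CD36 and MGLL were kept in every fit that left out 1 library. ACSL1 and DGAT2 were kept in 1 of these 6 fits, THRSP and ACSF2 in 2, ACSL4 in 4 and LPIN1 in 5. ACSF2 was not called by limma-trend on FPKM (adjusted p = 0.0527).

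**Figure D5:**
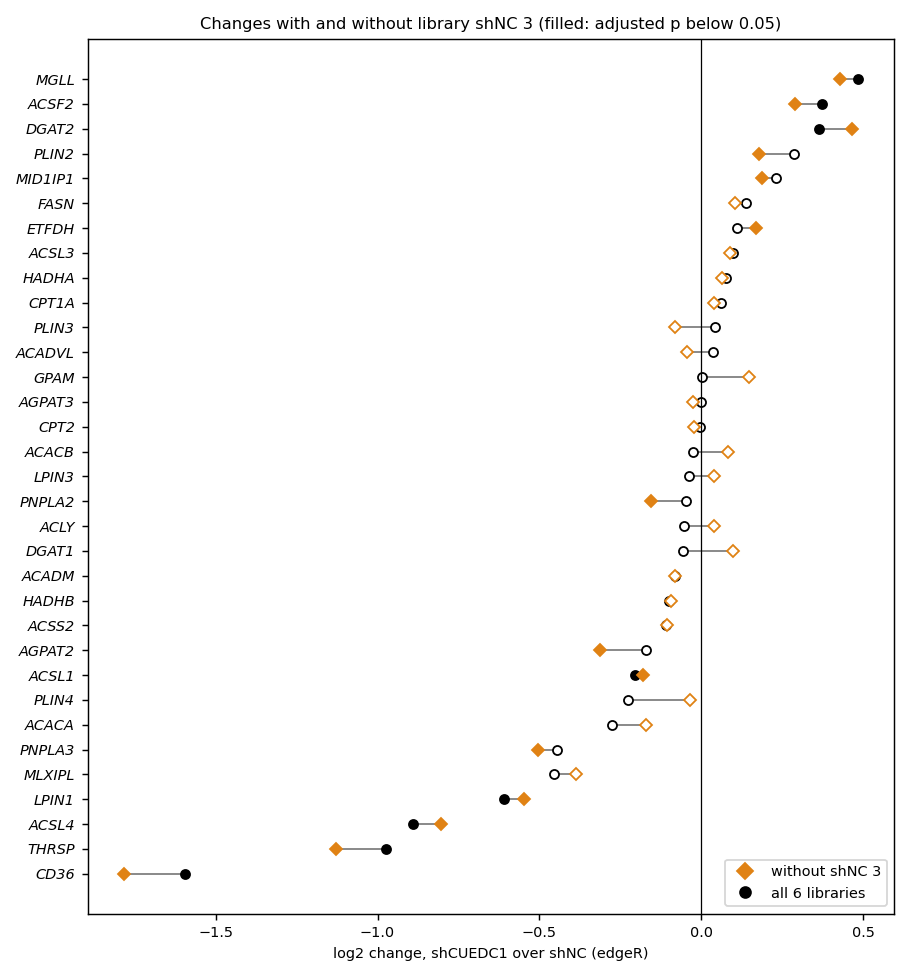
Log2 change of the 33 tested genes, shCUEDC1 over shNC, from edgeR without shNC 3 (orange diamonds) and with all 6 libraries (black circles); filled symbols have an adjusted p below 0.05. The 8 genes called with all libraries stay filled, and MID1IP1, PLIN2, ETFDH, PNPLA2, AGPAT2 and PNPLA3 are filled only without shNC 3.

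Of 149 other genes of the same pathways, 138 were tested, and 10 were called higher and 5 lower in shCUEDC1, where 5.19% and 4.77% of all genes were. Without shNC 3 they were 23 (16.4%) and 21 (15%) of 140, where 14.3% and 13.8% of all genes were. Among 25 regulators, 3 rose and 1 fell. PPARGC1B, a coactivator of mitochondrial and lipid genes, was at 6.93 ± 0.457 CPM in shCUEDC1 and 10.4 ± 1.66 CPM in shNC (SD, n = 3 each; log2 change -0.59, edgeR adjusted p = 0.0248). PRKAA2, a catalytic subunit of the energy sensor AMPK, rose by 0.43, MLXIP (MondoA), a glucose-responsive relative of ChREBP, by 0.29, and USF1, a factor that binds E-boxes, by 0.20 on the log2 scale (edgeR adjusted p = 0.0288, 0.0323 and 0.0492). Each of these 4 regulators lost its call in at least 3 of the 6 fits that left out 1 library, and the edgeR adjusted p reached 0.168 (USF1, without shCUEDC1 1). None of the 25 regulators was called by limma-trend on FPKM, where these 4 had adjusted p between 0.0601 and 0.089 with a pseudocount of 0.5.

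Among 21 other genes of uptake, binding and activation, 4 rose and 0 fell. ACOT4, an acyl-CoA thioesterase of peroxisomes, was at 101 ± 4.81 CPM in shCUEDC1 and 77.1 ± 1.84 CPM in shNC (SD, n = 3 each; log2 change 0.38, edgeR adjusted p = 0.00256). ACOT2, its mitochondrial relative, rose by 0.35, ACSM1, a medium-chain acyl-CoA synthetase, by 0.77, and DBI, which binds acyl-CoA, by 0.24 on the log2 scale (edgeR adjusted p = 0.0101, 0.0317 and 0.0406). ACOT2 has a near-identical neighbour, ACOT1, so its reads are uncertain. Among 36 other oxidation genes, 1 rose and 1 fell. ECI2, an enoyl-CoA isomerase, was at 111 ± 0.697 CPM in shCUEDC1 and 83.9 ± 5.05 CPM in shNC (SD, n = 3 each; log2 change 0.40, edgeR adjusted p = 0.00245). ACAT1, mitochondrial acetoacetyl-CoA thiolase, fell by 0.23 (edgeR adjusted p = 0.0241).

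GPD1L, a glycerol-3-phosphate dehydrogenase relative, was at 97.5 ± 2.51 CPM in shCUEDC1 and 76.1 ± 4.44 CPM in shNC (SD, n = 3 each; log2 change 0.36, edgeR adjusted p = 0.0047). CHPT1, a cholinephosphotransferase that uses diacylglycerol, rose by 0.35 (edgeR adjusted p = 0.0279). These were the 2 calls among 18 genes of glyceride and phospholipid assembly tested. ME2, mitochondrial malic enzyme, fell by 0.25 (1 of 11 in synthesis), FITM2, which takes part in droplet formation, by 0.49 (1 of 11 in the droplet list) and DDHD2, a triglyceride and phospholipid lipase, by 0.31 (1 of 16 in lipolysis), on the log2 scale, with 0 rises in these lists (edgeR adjusted p = 0.0326, 0.0436 and 0.025). ACOT4, GPD1L and ECI2 were called in all 6 fits that left out 1 library. The other 12 of these 15 genes were called in 1 to 3 of them. Of the 15, limma-trend on FPKM also called 7, which were ACOT2, ACOT4, ACSM1, GPD1L, DDHD2, ECI2 and ACAT1. DESeq2 called 13 of the 15, without ACSM1 and ME2, and limma-voom called 14, without FITM2.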

How the data were processed

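RNA of 6 T47D libraries, 3 shCUEDC1 and 3 shNC, is held in 1 table of 17758 genes. The deposited read counts are fractional, so they are estimated counts, and are not normalised. The deposited FPKM values are scaled by length and library size. Their ratio to CPM differed between libraries for some genes. MID1IP1 was at 31.17 FPKM and 71.1 CPM in shCUEDC1 1, against 27.57 FPKM and 58.3 CPM in shNC 3. The length used may thus differ between libraries, and the FPKM shares may carry part of that. Deposited TPM values, a signal column of counts divided by a size factor, and the authors' group means, among them whole-number scores, were not used. The submitters' processing notes name the build GRCh38.p13. The sources used here name no aligner, counter or strand setting. The authors compared the groups with DESeq2, per the labels.

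Here, estimated counts were rounded, filtered with filterByExpr (minimum count 10), normalised by TMM and compared with edgeR 4.0.16 (robust quasi-likelihood F test, R 4.3.3), with Benjamini-Hochberg adjustment over all genes tested. The pipeline was tested on simulated data. Fold changes are shCUEDC1 over shNC. Family shares use FPKM, with exact permutation tests. Every gene of the set is accounted for, and up to 4 called genes with the smallest p are named from each of the other pathway lists. The genes and lists were chosen with earlier results of these data known. Alternatives were RLE size factors, other filters, DESeq2 1.42.0, limma 3.58.1 (voom, and trend on log2(FPKM + 0.5) or log2(FPKM + 0.1)), a replicate block, and fits without each library in turn. Promoter windows are from RefSeq and gene positions from GENCODE v29.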

Additional observations from a re-analysis of the deposited data

How the results depend on the processing

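Calls depended on which libraries were used. Leaving out each library in turn, the genes called over the whole table were between 468 and 3925, the members called higher between 1 and 6 and lower between 1 and 8, and the other pathway genes called higher between 3 and 23 and lower between 0 and 21. The median log2 change ran from -0.061 to -0.011 over the set, from -0.168 to -0.033 in synthesis, from -0.239 to -0.179 in uptake and activation, from -0.091 to 0.038 in triglyceride assembly, from -0.034 to 0.121 in the droplet coat, from -0.156 to 0.155 in lipolysis and from -0.023 to 0.080 in oxidation. These genes, none called with all libraries, changed sign in such fits: ACACB (-0.293 to 0.0999), ACLY (-0.124 to 0.040), GPAM (-0.077 to 0.149), AGPAT3 (-0.027 to 0.029), LPIN3 (-0.148 to 0.038), DGAT1 (-0.128 to 0.096), PLIN3 (-0.080 to 0.121), PNPLA2 (-0.156 to 0.017), CPT2 (-0.040 to 0.025) and ACADVL (-0.044 to 0.080).

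Among the other settings, limma-trend gave 5 other pathway genes higher with either pseudocount. GPAM was at -0.0070 and -0.0069 in those fits. Without a low-count filter and with DESeq2, where more members are tested, the median of the set was -0.0087 and -0.011, that of uptake and activation 0.089 and 0.085, and AGPAT3 was at 0.0053 and 0.0030. CPT2 was at 0.0013 without the filter. THRSP's share of its pair differed by -4.47 percentage points on CPM, a scale chosen after seeing the data, against -7.65 on FPKM. Replicate numbers did not pair the samples (same-number correlations of 0.000286, 0.0252 and 0.00209). With them as a block, ACSL1 had an adjusted p of 0.0625 (edgeR) and 6 other pathway genes were higher, with 0 of 25 regulators among them (PRKAA2, MLXIP and USF1 at adjusted p of 0.0502, 0.0534 and 0.0871). The cause of these shifts was not tested.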
